A study of Mus musculus with 4 samples.

Results

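Aerocytes, also called aCap endothelial cells (ECs), are 1 of the capillary cell types of the lung. They were chosen here by their measured counts. A cell was taken as an EC when the UMIs (unique molecular identifiers, each marking 1 captured RNA molecule) of Cdh5, Cldn5, Egfl7, Ramp2 and Calcrl summed to at least 4 and Ptprc had none, and as an aerocyte when at least 3 of the 5 markers Ednrb, Car4, Fibin, Tbx2 and Chst1 also had a UMI. The rule found 451 aerocytes among 3567 ECs and 9363 cells in all. The 11 genes of the rule were used to choose the cells, so their values below are descriptions.

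The cells came from whole lungs of 4 mice on a C57/BL6 background, with 1 library per mouse. The 2 libraries labelled WT came from mice with floxed Erg alleles and no Cre, and the 2 labelled ERG CKO came from mice with the same alleles and CDH5-CreER(T), a tamoxifen-dependent recombinase driven by the promoter of an endothelial cadherin, so that recombination was aimed at ECs of every organ. Mice received 5 daily injections of 0.5 mg tamoxifen and lungs were collected 90 days later. All values compare the libraries as they are labelled.

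Aerocytes are large, thin capillary ECs that lie against the alveolar epithelium and are known for gas exchange, whereas general capillary ECs (gCap ECs) are known as the progenitor-like cells of the same network. Aerocytes are recognised by the endothelin receptor Ednrb and the carbonic anhydrase Car4, and they make apelin (Apln), the ligand of a receptor (Aplnr) that lies on gCap ECs. ERG is a transcription factor of the ETS family that is expressed in ECs of most vessels.

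In WT replicates 1 and 2, 79 of 850 and 104 of 883 ECs were aerocytes, and in ERG CKO replicates 1 and 2, 138 of 1154 and 130 of 680. These were shares of 9.29% (95% Wilson interval 7.52 to 11.4), 11.8% (9.82 to 14.1), 12% (10.2 to 14) and 19.1% (16.3 to 22.2), and the intervals cover counting error only. Shares of both ERG CKO libraries lay above those of both WT libraries, but ERG CKO replicate 1 exceeded WT replicate 2 by less than its interval. Means were 10.5% ± 1.76 in WT and 15.5% ± 5.06 in ERG CKO (SD over 2 mice, exact permutation p = 0.33, two-sided, the smallest that 2 mice per group allow). When 4 markers were required, WT shares were 5.65% and 9.51%, ERG CKO shares were 6.33% and 12.2%, and the groups overlapped. The groups overlapped in 9 of 14 alternatives with a share per library, among them those that dropped Ednrb, Car4, Tbx2 or Chst1 from the rule, thinned the cells, left out cells carrying genes of other types, or took the share of all cells.

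The number of markers that an aerocyte held is part of the rule and is given as a description. All 5 markers were found in 110 of 183 WT aerocytes (50.6% and 67.3% in replicates 1 and 2) and in 63 of 268 ERG CKO aerocytes (18.8% and 28.5%). Cells just inside the limit, with 3 markers, numbered 31 and 20 in the WT libraries and 65 and 47 in the ERG CKO libraries. Cells just outside it, with 2 markers, numbered 57 and 42 in the WT libraries and 114 and 80 in the ERG CKO libraries. No aerocyte lay at the endothelial limit of 4 UMIs, and 1 cell missed it by a single UMI.

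**Figure D1:**
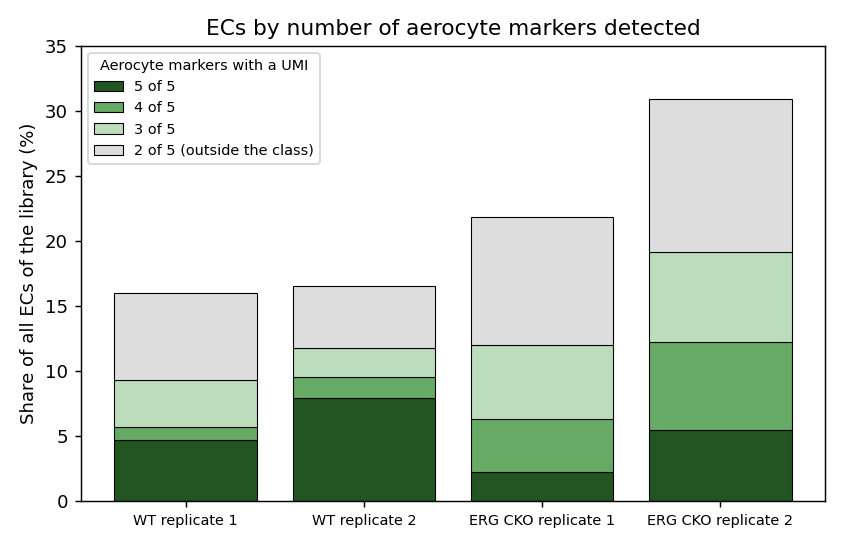
Share of all ECs of each library (y axis, in percent) that held 2, 3, 4 or 5 of the 5 aerocyte markers, as stacked bars for the 4 libraries. The dark segment for all 5 markers makes up 50.6% and 67.3% of WT aerocytes but 18.8% and 28.5% of ERG CKO aerocytes, and grey cells lie outside the class.

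The missing marker in ERG CKO cells was mostly Fibin, a secreted protein. Fibin had a UMI in 88.6% and 90.4% of WT aerocytes and in 31.9% and 42.3% of ERG CKO aerocytes, while Car4 had one in 96.2% to 98.5% and Ednrb in 78.5% to 94.2% of the aerocytes of every library. With cells reduced at random to 2000 UMIs each (11 and 24 aerocytes of the WT libraries and 4 and 9 of the ERG CKO libraries were shallower and dropped), Fibin was found in 66.2% and 83.8% of WT aerocytes and in 20.9% and 32.2% of ERG CKO aerocytes. Fibin helped to choose these cells at full depth, so these shares describe the cells chosen. In other ECs, Fibin had a UMI in 1.38% to 2.72% of the cells. By level, in CPM (counts of a gene over the total count, on the usual CPM scale, with all aerocytes of a library summed), Fibin was at 1149 and 1732 in WT and at 153 and 520 in ERG CKO. Car4 was at 1680 and 2988 CPM in WT and at 1032 and 1128 CPM in ERG CKO. Tbx2, a T-box transcription factor, was at 608 and 629 CPM in WT and at 343 and 391 CPM in ERG CKO. The groups overlapped for Ednrb (1176 and 1738 against 639 and 1367 CPM) and for the sulphotransferase Chst1 (224 and 458 against 175 and 230 CPM).

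The label was checked with 12 further aerocyte genes that did not choose the cells. In every library, 11 of the 12 were higher in aerocytes than in the other ECs, and Hpgd, a prostaglandin-degrading enzyme, was lower (log2 ratio −0.65 to −0.40). Igfbp7 had the widest gap, with log2 ratios of 4.32 and 5.51 in the WT libraries and 2.87 and 2.74 in the ERG CKO libraries. Rprml, Apln and the tetraspan protein Emp2 followed in WT, with log2 ratios of 3.43 to 4.59. The gCap genes Gpihbp1 and Plvap were lower in aerocytes than in other ECs, at 180.5 to 486 CPM against 869 to 1477 CPM for Gpihbp1. These are descriptions with 10 CPM added to each level, because the cells were separated on their counts.

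Among all genes outside the rule, the 15 that stood highest above the other ECs in all 4 libraries were Igfbp7, Tmeff2, Emp2, Dpysl5, AW112010, Pde8b, Itgb5, Egflam, Ccdc184, Ccdc68, Cdkn2b, C1qtnf2, Lrrc16a, Abcc3 and Chst2. Tmeff2, a transmembrane protein, was at 145 and 191 CPM in WT and at 81.5 and 122 CPM in ERG CKO aerocytes, and at 2.09 to 6.77 CPM in other ECs. AW112010 was at 646 and 1178 CPM in WT and at 282 and 296 CPM in ERG CKO aerocytes, against 30.1 to 56.5 CPM in other ECs. The 8 genes that stood lowest were Prss23, Slc6a2, Vwf, Tinagl1, Ch25h, Edn1, Plvap and Itga6, of which Slc6a2 and Vwf are known from veins. None of the 8, of which 7 were tested in aerocytes, was called between the groups in aerocytes or in other ECs in the fits described below, while 14 of the 15 aerocyte genes had a negative log2 fold change in the full class (49.8% of all genes tested did). Of these 15, none passed in the full class (lowest adjusted p 0.0684 by edgeR). With at least 4 markers 8 fell, beside 3.72% of all genes. DESeq2 called 4, beside 2.24% of all genes, and edgeR called 3 without cells carrying genes of other types, beside 1.34%.

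Median depth and median mitochondrial share of the aerocytes were close, but shallow cells were more frequent in WT. The median aerocyte held 6992 and 6042.5 UMIs in WT and 6098 and 6036.5 in ERG CKO, above the 3673 to 3910 UMIs of other ECs, and summed aerocytes held 677131 to 1202508 UMIs per library. Median mitochondrial shares were 3.82% to 4.29%. Xist was at 788 and 848 CPM in replicate 1 of both groups and was without a UMI in both replicates numbered 2, so both groups held 1 mouse of each pattern. A barcode shared with another library was found in 1 aerocyte, and 2 aerocytes were called doublets.

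Genes of other cell types were examined in the aerocytes. All 5 platelet genes (Pf4, Ppbp, Gp9, Itga2b and Gp1bb) were at higher levels in both ERG CKO libraries, with summed levels of 132 and 148 CPM in WT and 458 and 422 CPM in ERG CKO, and at least 2 of them had a UMI in 8.86%, 5.77%, 29.0% and 12.3% of the aerocytes. The 5 T cell genes summed to 3.22 to 8.79 CPM and the 4 B cell genes to 1.48 to 4.16 CPM in 3 libraries and to 111 CPM in WT replicate 1, all of the latter from 2 cells. Surfactant and other AT2 genes summed to 9058 and 32.5 CPM in WT and to 3173 and 12444 CPM in ERG CKO, with 93.3% to 99.6% of these UMIs in 2 cells wherever they exceeded 1000 CPM. Erythroid genes summed to 68.9 and 48.7 CPM for the WT libraries. The ERG CKO libraries had 200.4 and 6322 CPM, and 99.6% of the UMIs in replicate 2 lay in 2 cells. ERG CKO replicate 1 had a wider spread, with 24.5% of its erythroid UMIs in 2 cells. At least 2 erythroid genes had a UMI in 30.4% of its aerocytes, against 1.27% to 5.77% in the other libraries. For AT2 genes this share was 26.1% in ERG CKO replicate 1, against 0.962% to 10.1% in the other libraries. In all, 14 and 14 WT aerocytes and 59 and 25 ERG CKO aerocytes carried genes of another cell type, and results are also given without them.

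Erg, the targeted gene, did not separate the groups. In aerocytes it was at 96.7 and 63.5 CPM in WT (66 and 43 UMIs) and at 93.1 and 75.2 CPM in ERG CKO (112 and 70 UMIs), with a log2 fold change of 0.07 (SE 0.26, adjusted p = 0.964). At 2000 UMIs per cell, 14.7% and 11.3% of WT aerocytes and 14.2% and 13.2% of ERG CKO aerocytes held an Erg UMI. The matrix holds 1 count per gene, so loss of the floxed part of the transcript cannot be seen in it, and these counts check the labels neither way.

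To ask which genes of aerocytes differed between the groups, counts were summed over the aerocytes of each library and tested with edgeR. None of 8403 genes had an adjusted p of at most 0.05 (0%), although 934 had an unadjusted p below 0.05 and the lowest adjusted p was 0.0507. DESeq2 called 124 of 5530 genes (2.24%) in the same sums, 53 higher and 71 lower (1.28%) in ERG CKO. With the replicate number as a block, edgeR called 171 genes (2.03%), 163 of them also called when at least 4 markers were required. The number coincides with the Xist pattern given above in both groups. Without the cells carrying genes of other types, edgeR called 92 of 6844 genes (1.34%), 51 of them lower (0.745%). Both ERG CKO libraries were above both WT libraries for 21.2% of the 8403 genes and below them for 19.6%.

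The edgeR result depended on which cells were taken. With at least 4 markers required, which left 48 and 84 WT and 73 and 83 ERG CKO cells, edgeR called 506 of 7636 genes (6.63%), of which 222 were higher (2.91%) and 284 lower (3.72%) in ERG CKO, and 123 of the 124 genes called by DESeq2 were among them. Of those 288 cells, 110 of the 132 in WT and 63 of the 156 in ERG CKO held all 5 markers. This count rested on all 4 libraries. It fell in every fit that dropped 1 library, which leaves 1 mouse in a group. The genes called in those fits were not all among the 506. When cells with genes of other types were also left out, 341 genes were called, 308 of them among the 506. Below, "4-or-5-marker aerocytes" are these 288 cells, and a gene is said to have risen or fallen only where it passed the test in them.

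Described next are 9 genes of lowest p in the full class outside the rule. These genes, with groups that did not overlap and at least 50 CPM in the higher group, had adjusted p from 0.0507 to 0.0524, so none passed. Of these 9, 6 were higher and 3 lower in ERG CKO. All 9 passed in 4-or-5-marker aerocytes, by DESeq2, and in the class without cells carrying genes of other types. These fits called 6.63%, 2.24% and 1.34% of all genes. They reuse the libraries in which the 9 were chosen for low p, so the passes are not independent support.

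Slc12a2, a cotransporter of sodium, potassium and chloride, was at 86.4 and 38.4 CPM in WT aerocytes and at 807 and 1033 CPM in ERG CKO aerocytes. A UMI of it was found in 41.8% and 21.2% of WT aerocytes and in 90.6% and 93.1% of ERG CKO aerocytes, and in 1.40% to 6.67% of T cells, whose median depth was 5915 to 6431 UMIs. At 2000 UMIs per cell these shares were 16.2% and 8.75% against 72.4% and 79.3%. The groups lay far apart on every measure, and in 4-or-5-marker aerocytes Slc12a2 rose by a log2 fold change of 4.17 (SE 0.29, adjusted p = 0.000935).

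Sema5a, a semaphorin that guides growing axons and vessels, was at 30.8 and 29.5 CPM in WT and at 204 and 280 CPM in ERG CKO aerocytes. Epha4, a receptor for ephrins, was at 35.2 and 28.1 CPM in WT and at 151 and 178 CPM in ERG CKO. Unc5c, a receptor for netrins, was at 5.86 and 1.48 CPM in WT, from 4 and 1 UMIs, and at 75.7 and 89.2 CPM in ERG CKO. These 3 guidance genes rose in 4-or-5-marker aerocytes, with log2 fold changes of 2.80 (SE 0.27) for Sema5a, 2.39 (SE 0.29) for Epha4 and 4.70 (SE 0.49) for Unc5c, and adjusted p of 0.00141, 0.00256 and 0.00168.

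Tubb2b, a beta-tubulin close in sequence to Tubb2a so that reads of the pair may have been split uncertainly, was at 8.79 and 13.3 CPM in WT and at 114 and 130 CPM in ERG CKO. It rose by 3.03 (SE 0.34, adjusted p = 0.0018) in 4-or-5-marker aerocytes.

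Both ends of thromboxane signalling were among the 9. Tbxas1, the thromboxane A synthase, had 2 and 0 UMIs in WT aerocytes and 107 and 80 UMIs, or 89.0 and 85.9 CPM, in ERG CKO aerocytes, in 63 and 47 cells. Tbxa2r, the thromboxane A2 receptor, was at 61.5 and 100.4 CPM in WT and at 4.16 and 3.22 CPM in ERG CKO, from 42, 68, 5 and 3 UMIs. The synthase rose (adjusted p = 0.00141) and the receptor fell (log2 fold change −5.00, SE 0.43, adjusted p = 0.00141) in 4-or-5-marker aerocytes. Platelets are known to use this pathway, and the platelet genes above were higher in ERG CKO aerocytes. Without the cells carrying genes of other types the edgeR adjusted p was 0.0115 for Tbxas1 and 0.0186 for Tbxa2r. A cell was left out for platelet genes only where at least 2 of them had a UMI. The part of platelets in these changes was not tested.

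Rasgrp2, an exchange factor that activates Rap1, was at 283 and 349 CPM in WT and at 59.9 and 35.4 CPM in ERG CKO aerocytes. Dpp4, a cell-surface peptidase, was at 170 and 183 CPM in WT and at 40.7 and 25.8 CPM in ERG CKO. Both were lower in each ERG CKO library than in either WT library and fell in 4-or-5-marker aerocytes, with log2 fold changes of −3.07 (SE 0.29) and −2.59 (SE 0.23) and an adjusted p of 0.00141 for each. In other ECs, edgeR called 107 of 11349 genes (0.943%), and 4 of the 9 genes were among them, namely Sema5a, Slc12a2, Tubb2b and Tbxas1, all higher.

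**Figure D2:**
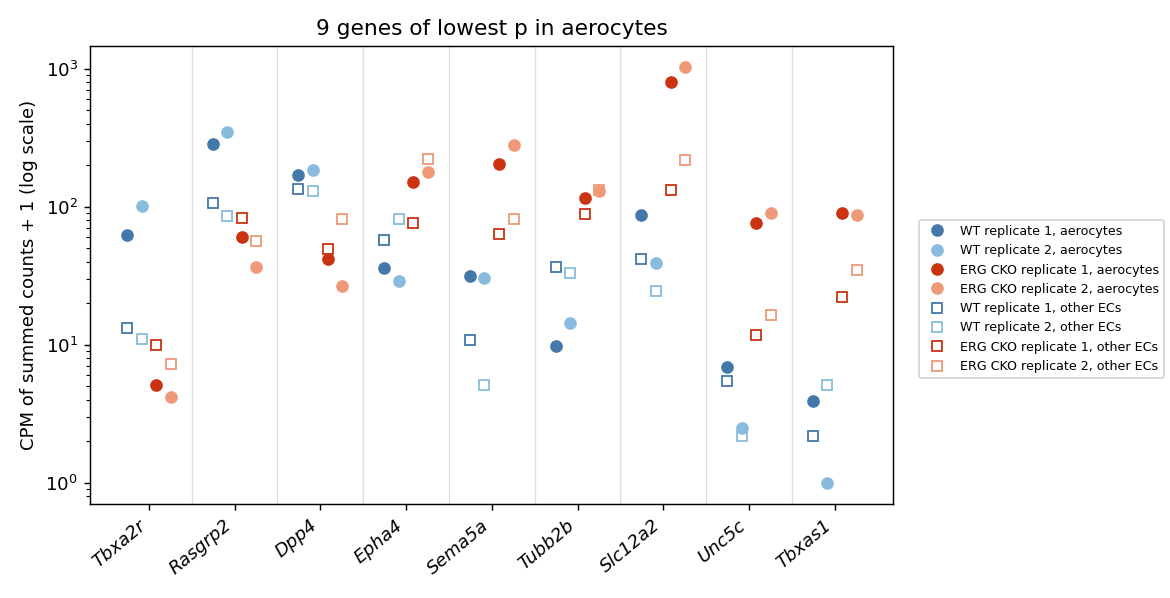
Level of 9 genes of lowest p (CPM of summed counts plus 1, log scale) in aerocytes (filled circles) and other ECs (open squares) of each library. In aerocytes the WT and ERG CKO circles are apart for every gene, for example at 86.4 and 38.4 against 807 and 1033 CPM for Slc12a2.

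Most, but not all, of the genes by which aerocytes are known had lower levels in ERG CKO aerocytes, and none passed in the full class. Of the 12 aerocyte genes outside the rule, 10 had a negative log2 fold change in the full class, and 8 lay below both WT libraries in both ERG CKO libraries (19.6% of all genes tested did). Their median log2 fold change was −0.96, beside 0.00 for all 8403 genes. In 4-or-5-marker aerocytes 8 of the 12 fell and none rose (median −1.07, beside 0.01 for all 7636 genes), where 3.72% of all genes fell. By DESeq2, 5 of the 12 were called lower, as were 1.28% of all genes, and 2 were called lower without cells carrying genes of other types, as were 0.745% of all genes.

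Emp2 was at 2146 and 3698 CPM in WT and at 948 and 1044 CPM in ERG CKO aerocytes, and fell in 4-or-5-marker aerocytes by 1.76 on the log2 scale (SE 0.18, adjusted p = 0.00168). Igfbp7, an insulin-like growth factor binding protein, was at 3662 and 6414 CPM in WT and at 1828 and 2523 CPM in ERG CKO. Prx, or periaxin, was at 438 and 629 CPM in WT and at 244 and 211 CPM in ERG CKO. Both fell in 4-or-5-marker aerocytes, with log2 fold changes of −1.34 (SE 0.19, adjusted p = 0.00412) and −1.51 (SE 0.19, adjusted p = 0.00326).

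Rprml, a gene similar to reprimo, showed the largest change of the list, with 139 and 258 CPM in WT and 38.3 and 17.2 CPM in ERG CKO aerocytes and a log2 fold change of −3.04 in 4-or-5-marker aerocytes (SE 0.29, adjusted p = 0.00141). Sirpa, a receptor that binds CD47, and the myelin protein Pmp22 also fell there, with log2 fold changes of −1.04 and −0.68 (adjusted p = 0.0195 and 0.0434). Tbx3, Cd24a, Nrp1 and Hpgd did not pass, with log2 fold changes in 4-or-5-marker aerocytes of −0.57, 0.01, −0.49 and 0.09 and adjusted p from 0.113 to 0.994. The T-box gene Tbx3 was at 771 and 1133 CPM in WT and at 659 and 1007 CPM in ERG CKO aerocytes, so the groups overlapped.

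**Figure D3:**
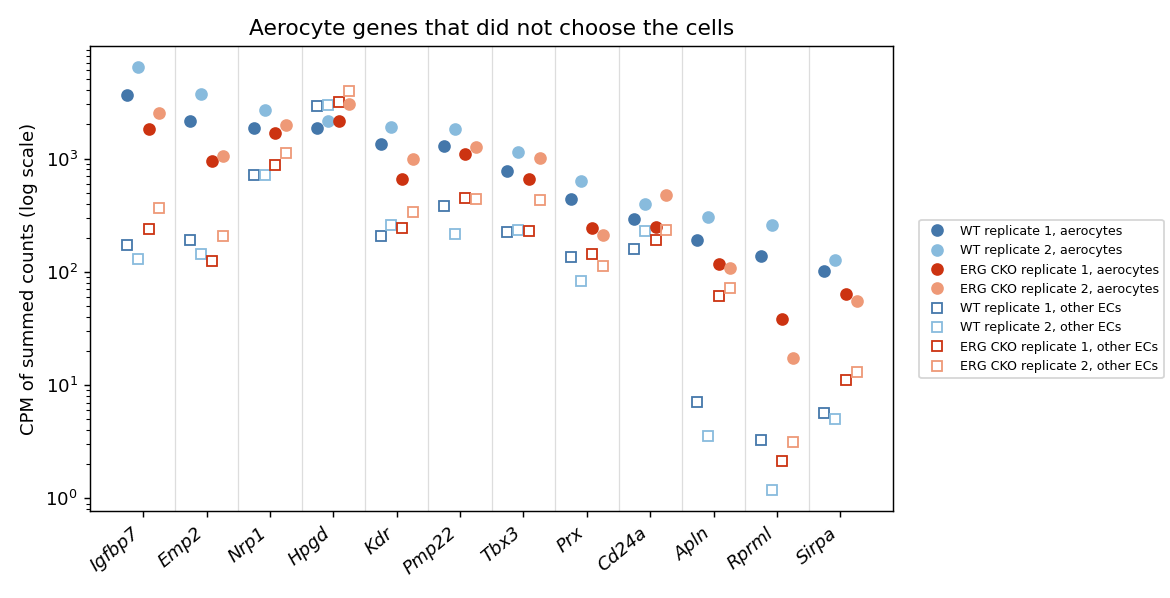
Level of 12 aerocyte genes that did not choose the cells (CPM of summed counts, log scale) in aerocytes (filled circles) and other ECs (open squares) of each library. For Emp2 the WT circles lie at 2146 and 3698 CPM and the ERG CKO circles at 948 and 1044 CPM, and for Hpgd the squares lie above the circles of the same library.

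Signals and receptors of the vascular endothelial growth factor (VEGF), apelin and endothelin pathways were compared next. Of 10 genes, 8 had a negative log2 fold change in the full class (median −0.40), as did 49.8% of all genes tested. In 4-or-5-marker aerocytes 2 of the 9 tested fell, beside 3.72% of all genes. Kdr, the main VEGF receptor of ECs, was at 1343 and 1884 CPM in WT and at 663 and 993 CPM in ERG CKO aerocytes, and fell in 4-or-5-marker aerocytes by a log2 fold change of −1.20 (SE 0.19, adjusted p = 0.00692). The other receptors Flt1 and Nrp1 had log2 fold changes of −0.46 and −0.49 there (adjusted p = 0.199 and 0.113).

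Apln was the other gene of this list that fell, and it was the only gene of 10791 (0.00927%) whose change differed between aerocytes and other ECs in the full class. In aerocytes Apln was at 192 and 303 CPM in WT and at 118 and 107 CPM in ERG CKO, while in other ECs it was at 7.15 and 3.54 CPM in WT and at 60.5 and 71.3 CPM in ERG CKO. A UMI of Apln was found in 51.9% and 60.6% of WT aerocytes and in 31.9% and 23.1% of ERG CKO aerocytes. Among other ECs it was found in 1.82% and 1.54% of WT cells and in 6.40% and 6% of ERG CKO cells, and no T cell held one. Log2 fold changes of the 2 classes had opposite signs. In aerocytes the value was −1.15 and did not pass (SE 0.27, edgeR adjusted p = 0.163), and in other ECs it was 3.54 (SE 0.27, adjusted p = 0.00813). The difference was −4.66 (adjusted p = 0.0498) and −4.29 in 4-or-5-marker aerocytes (adjusted p = 0.000503), where Apln itself fell (−1.10, SE 0.21, adjusted p = 0.0166). Without ERG CKO replicate 1 the difference in the full class was −4.82 with an adjusted p of 0.0799. With 4 markers required, the change differed from that of the remaining ECs for 469 of 10571 genes (4.44%), among them 10 of the 12 aerocyte genes.

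Because Apln was the gene with this difference, its upstream sequence is shown. From RefSeq (GRCm38.p6), the 250 bases before the annotated start of Apln lie on the minus strand at chrX:48034854-48035103. ETS factors are known to bind GGAA cores, and capitals mark the match found to AGGAAG or CGGAAG on either strand (here as the reverse complement). Of all 32851 such windows in the RefSeq table, 39.2% hold a match, so the match is a description of the sequence.

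Apln promoter: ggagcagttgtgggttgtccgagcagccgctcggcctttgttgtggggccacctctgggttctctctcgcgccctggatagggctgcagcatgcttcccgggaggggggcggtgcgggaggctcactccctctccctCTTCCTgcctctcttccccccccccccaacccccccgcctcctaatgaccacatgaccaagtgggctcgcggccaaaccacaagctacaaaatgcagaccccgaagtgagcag

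The Notch pathway passes signals between neighbouring cells. Of 8 genes tested, 7 had a negative log2 fold change in the full class (median −0.24), as did 49.8% of all genes tested. In 4-or-5-marker aerocytes 2 of 7 fell, beside 3.72% of all genes. The receptor Notch1 was at 249 and 229 CPM in WT and at 87.3 and 73.0 CPM in ERG CKO aerocytes, and fell in 4-or-5-marker aerocytes by 1.68 on the log2 scale (SE 0.22, adjusted p = 0.00358). Its ligand Dll4 was at 96.7 and 100.4 CPM in WT and at 37.4 and 50.5 CPM in ERG CKO, and fell by 1.39 (SE 0.28, adjusted p = 0.0194). The target genes Hes1 and Hey1 had log2 fold changes of 0.03 and 0.39 (adjusted p = 0.963 and 0.776).

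Among 18 endothelial transcription factors tested, 1 rose and 1 fell in 4-or-5-marker aerocytes, where 2.91% of all genes rose and 3.72% fell. The counts were near those shares, so Fli1 and Sox18 are described as single genes. Fli1, an ETS factor close to ERG, was at 98.2 and 72.4 CPM in WT and at 215 and 209 CPM in ERG CKO aerocytes, and rose by a log2 fold change of 1.37 (SE 0.22, adjusted p = 0.00708). Sox18 was at 294 and 539 CPM in WT and at 136 and 215 CPM in ERG CKO, and fell by 1.42 (SE 0.27, adjusted p = 0.0153). The median of the list was 0.12 in 4-or-5-marker aerocytes.

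Genes common to all ECs were not uniform. Of 9 such genes, 3 fell and 1 rose in 4-or-5-marker aerocytes, where 3.72% of all genes fell and 2.91% rose. Esam, Icam2 and Robo4, which lie at cell contacts or the cell surface, fell with log2 fold changes of −1.11, −0.996 and −1.12 (adjusted p = 0.00662, 0.00986 and 0.0249). Endomucin, or Emcn, was at 322 and 502 CPM in WT and at 893 and 950 CPM in ERG CKO aerocytes and rose by 0.86 (SE 0.17, adjusted p = 0.0176). It also rose in other ECs (log2 fold change 1.69, SE 0.15, adjusted p = 0.0126). The summed UMIs of the 5 endothelial genes of the rule had medians of 101 and 111 per WT aerocyte and of 56 and 55.5 per ERG CKO aerocyte.

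Genes of coagulation and fibrinolysis were also examined. Plat, or tissue plasminogen activator, was at 92.3 and 32.5 CPM in WT and at 512 and 541 CPM in ERG CKO aerocytes, and rose by a log2 fold change of 3.56 (SE 0.35, adjusted p = 0.00141). F8, coagulation factor VIII, had 1 and 0 UMIs in WT aerocytes and 17 and 12 in ERG CKO aerocytes, 66.7% of those of replicate 2 in a single cell, and also passed (adjusted p = 0.0184).

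The chemokine Cxcl10 was at 2.93 and 14.8 CPM in WT and at 125 and 102 CPM in ERG CKO aerocytes, and rose in 4-or-5-marker aerocytes by 3.72 (SE 0.48, adjusted p = 0.00328). Its UMIs came from 25 and 13 ERG CKO cells, with 29.3% and 31.6% of them in the highest cell. Ifi27l2a, an interferon-induced gene, was at 63.0 and 4.43 CPM in WT and at 277 and 132 CPM in ERG CKO, and rose by 3.61 (SE 0.59, adjusted p = 0.00832). The study named both, with Gpx3 and Cdkn1a, from these libraries, so they are not independent evidence of a direction. Gpx3 and Cdkn1a did not pass (adjusted p = 0.999 and 0.187).

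Tgfbi, an extracellular protein induced by TGF-beta, differed between the ERG CKO mice themselves, with 64.9 CPM in 36 cells of replicate 1 and 492 CPM in 104 cells of replicate 2, against 5.86 and 4.43 CPM in WT. It rose in 4-or-5-marker aerocytes (adjusted p = 0.0116), as did Ctgf (log2 fold change 2.97, SE 0.41, adjusted p = 0.00412).

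The levels also depended on how many markers a cell held. In ERG CKO, Slc12a2 was at 780 and 967 CPM in cells with 3 markers, 798 and 1067 CPM with 4 and 879 and 1051 CPM with 5, and at 289 and 499 CPM in cells with 2 markers, which lie outside the class. In WT, it stayed at 0 to 122 CPM over these numbers of markers. Emp2 in WT cells climbed from 722 and 1393 CPM with 3 markers to 3432 and 3950 CPM with 5, whereas in ERG CKO it was at 933 and 857 CPM with 3 and at 1181 and 1341 CPM with 5. Apln in WT was at 28.7 and 71.4 CPM in cells with 3 markers and at 332 and 327 CPM in cells with 5, and in ERG CKO at 44.6 and 72.3 CPM with 3 and at 155 and 105 CPM with 5. In ECs with none of the 5 markers, Apln was at 6.12 and 1.89 CPM in WT and at 71.8 and 120.1 CPM in ERG CKO, so the higher level of other ECs was not limited to cells near the edge of the class. The lower levels of aerocyte genes in ERG CKO did not hold at each number of markers. In cells with 3 markers, Pmp22 was at 513 and 607 CPM in WT and at 1148 and 1233 CPM in ERG CKO. Igfbp7 was there at 610 and 1143 CPM in WT and at 1420 and 1686 CPM in ERG CKO. Nrp1, Tbx3, Prx, Cd24a and Hpgd were also higher there in both ERG CKO libraries than in both WT libraries. For Apln, Kdr, Emp2, Rprml and Sirpa the groups overlapped there. In WT cells with 3 markers, which numbered 20 with a median of 1368.5 UMIs in replicate 2, the gCap gene Gpihbp1 was at 729 and 697 CPM, against 242 and 220 CPM in cells with 5 markers. In ERG CKO the corresponding levels of Gpihbp1 were 336 and 251 CPM with 3 markers and 209 and 159 CPM with 5.

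**Figure D4:**
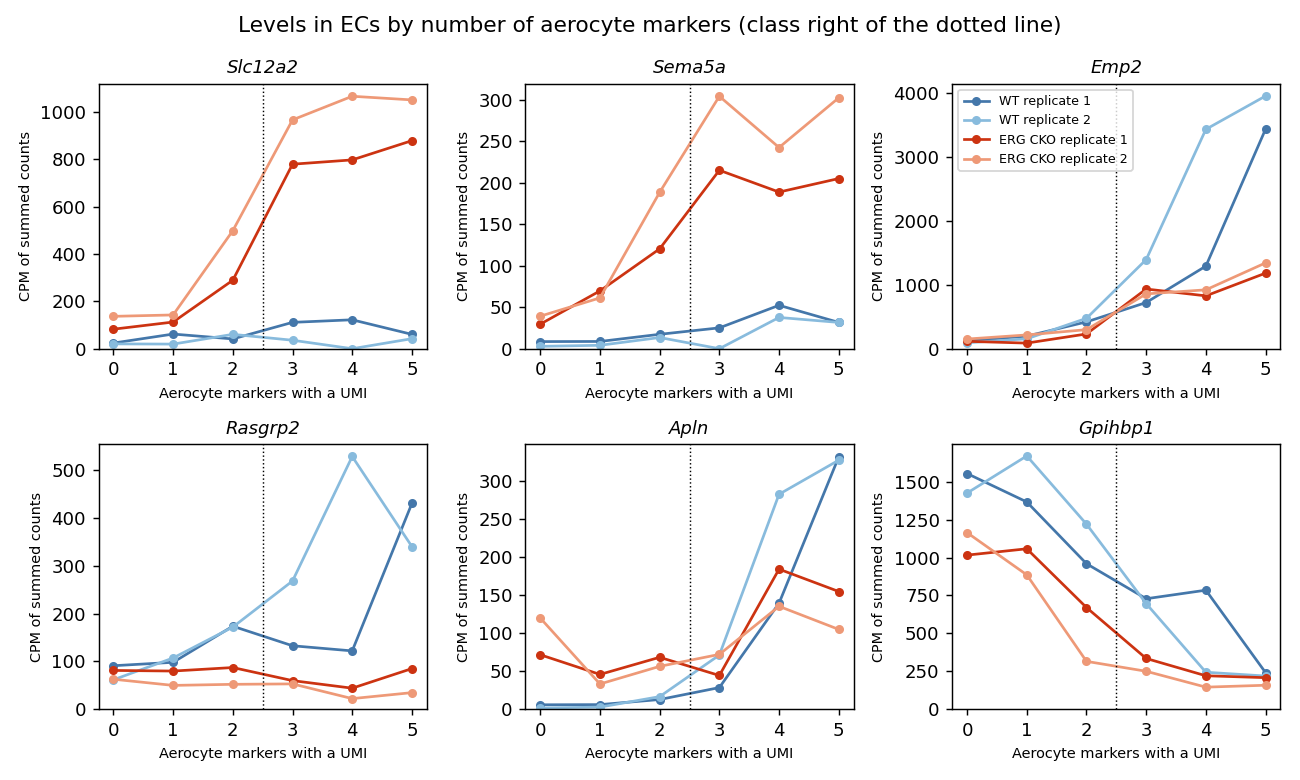
Level of 6 genes (CPM of summed counts) in ECs with 0 to 5 aerocyte markers, with 1 line per library and the class to the right of the dotted line. In ERG CKO, Slc12a2 lies between 780 and 1067 CPM over 3 to 5 markers and in WT at no more than 122 CPM, and Emp2 with 5 markers lies at 3432 and 3950 CPM in WT and at 1181 and 1341 CPM in ERG CKO.

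Immediate early genes, which respond to dissociation, moved with the groups in 4-or-5-marker aerocytes. Of 10 such genes, Fos, Fosb, Junb and Egr1 rose there, beside 2.91% of all genes, and none fell. Log2 fold changes of those that rose were 0.76 to 1.21 (edgeR adjusted p from 0.00645 to 0.0195). In the full class none of the 10 passed. The 10 summed to 10360.1 and 9846 CPM in WT and 12250.2 and 12092 CPM in ERG CKO. Their part in the other results was not tested. Platelet genes moved likewise, with 4 of 5 higher at an adjusted p of 0.0133 to 0.0271 in 4-or-5-marker aerocytes, and their part was not tested beyond the fits without the cells that carried them.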

How the data were processed

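Whole lungs of 4 mice, 2 per group, were digested with enzymes and profiled by 10x Genomics single-cell RNA sequencing. The submitters' processing notes name Cell Ranger 3.1.0 and the mm10 genome, and the authors deposited whole-number UMI counts per gene and cell (20076 gene rows), with no cell annotation used here. All 9363 deposited barcodes were kept. Cell classes were rebuilt with the rule given above, so they may differ from the study's clusters, and the members and gene lists were chosen with earlier results of these data known. Scrublet (scanpy 1.11.5) called 66 doublets (0.705% of cells), which stayed in and were left out in an alternative, and 7 barcodes occurred in more than 1 library.

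Counts were summed over the cells of a class in each library. ERG CKO was compared with WT by edgeR 4.0.16 in R 4.3.3 (TMM, filterByExpr, quasi-likelihood test, no block), with Benjamini-Hochberg adjustment over all genes tested and a threshold of 0.05. The difference of the change between aerocytes and other ECs was an interaction term. SE is the log2 fold change divided by the root of the F statistic. DESeq2 1.42.0 was an alternative. Scripts were tested on simulated data. Each library is a separate mouse, so p-values measure the spread between 2 mice per group. Replicates of a group differed by more than sampling noise (chi-square over degrees of freedom 5.27 in WT and 5.28 in ERG CKO). Library totals were 11263911 to 18646776 UMIs.

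Genes named are those of lowest p, up to 10, whose groups did not overlap and whose level reached 50 CPM in the higher group, because fewer than 10 genes passed, the gene whose change differed between classes, the 15 highest and 8 lowest in aerocytes against other ECs, and members of the lists. Of the genes of lowest p, 1 is not reported here, nor are counts of the 2 lists that hold it. The 13 repeated gene symbols were kept apart. A 95% Wilson interval covers counting error only. Cells with genes of other types (112 aerocytes) were left out in an alternative, and other alternatives changed the markers needed, the endothelial sum, depth, filters, scaling and replicates.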

Additional observations from a re-analysis of the deposited data

Results flagged for a closer look

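Apln was the result that stood out, because its change between ERG CKO and WT differed between aerocytes and other ECs by −4.66 on the log2 scale (edgeR interaction term, adjusted p = 0.0498). Both ERG CKO libraries lay below both WT libraries in aerocytes and above them in other ECs. The difference passed in 15 of 17 alternatives. It did not pass without ERG CKO replicate 1 (−4.82, adjusted p = 0.0799) or when the class was limited to cells with 3 or 4 markers (−0.33, adjusted p = 0.934), where cells with all 5 markers count among the other ECs. With 2 libraries per group, no search for libraries far from the rest of their group was possible.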

How the results depend on the processing

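The number of genes changed in aerocytes, 0 as reported, depended on the processing more than any other result, and the cause was not tested. It was 124 by DESeq2, 8 with DESeq2 size factors, 618 without the filter on low counts, 145 with cells thinned to 2000 UMIs, 34 with at most 10% mitochondrial UMIs, 8 and 33 with an endothelial sum of at least 3 and 6, and 92 without cells carrying genes of other types. It was 110 with at least 2 markers, 506 with at least 4, 467 with all 5, and 341 with at least 4 and cells carrying genes of other types left out. It was 0 with 3 or 4 markers and without doublets. Leaving out 1 library gave 20 to 262 (20 without WT replicate 2), and with at least 4 markers 0 to 192 (12 without ERG CKO replicate 1, 1 without WT replicate 2). A lone sample was then assumed to vary like the other group. With the replicate number as a block it was 171. Same-numbered samples deviated together (correlation 0.256 over 8403 genes, 0.23 without Xist and Y-linked genes), the number coincides with the Xist pattern, but the labels give only a shared number and there are 2 pairs. The number of genes whose change differed between aerocytes and other ECs, 1 as reported, was 2 with 3 or 4 markers, 31 with at least 2, 469 with at least 4, 205 with at least 4 and cells carrying genes of other types left out, 614 with all 5, 3 against ECs with none of the 5 markers, 4 against gCap-marker ECs, 512 without the filter, 129 thinned, and 1 to 528 leaving out 1 library (528 without WT replicate 1). The log2 ratio of the aerocyte share was 0.18 to 0.86 in 18 alternatives, and the groups overlapped in 9 of the 14 that kept all libraries. Erg passed in none of 23 alternatives (−0.19 to 0.58). Each of the 9 genes of lowest p described kept its direction in every alternative that gave a value. The 9 were chosen for low p in the same libraries, so this is not independent support. The settings with all 5 markers, with 3 or 4 markers, and with at least 4 markers combined with another choice were chosen after seeing the data. With 48 to 84 cells of 4 or 5 markers per library, genes of few UMIs, such as Tbxas1 in WT, have no precise fold change.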

Other observations

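Other gene groups were also counted in aerocytes. With 4 or 5 markers, 2.91% of all 7636 genes tested rose and 3.72% fell. In lists this small, a single call describes the gene and not the list. Of 10 genes of the BMP and TGF-beta pathways, Acvrl1, an endothelial BMP receptor, and its target Id1 fell in aerocytes with 4 or 5 markers (log2 fold changes −0.96 and −0.97, edgeR adjusted p = 0.0142 and 0.0287) and none rose. Acvrl1 was at 1232 and 1912 CPM in WT and at 857 and 1102 CPM in ERG CKO aerocytes of the full class, where it did not pass (adjusted p = 0.437). Of the junction and adhesion genes, 10 were tested there, and Vcam1 rose (1.51, adjusted p = 0.0171) while Esam, Icam1 and Icam2 fell (Icam1 −0.96, adjusted p = 0.0206). Of the gCap genes, 8 were tested, and the angiopoietin receptor Tek and the adhesion receptor Adgre5 fell (−0.85 and −0.97, adjusted p = 0.0485 and 0.0118). Efna1, an ephrin in the capillary list that the study chose from these libraries, fell with Tek as 2 of its 6 genes (−1.56, adjusted p = 0.0218), which is not independent evidence of a direction. Dll4 was 1 of 7 artery genes and Vcam1 1 of 5 vein genes that passed, beside 6.63% of all genes.

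Of 10 interferon-stimulated genes, Ifi27l2a rose, beside 2.91% of all genes. Of 7 MHC genes, the class II gene H2-Eb1 rose (1.38, edgeR adjusted p = 0.0175). In the full class without cells carrying genes of other types, H2-Eb1 had an adjusted p of 0.868. None of 10 basement membrane genes passed by edgeR with 4 or 5 markers, and the single cell cycle gene tested did not pass. Hopx, listed for AT1 cells and at 1357 and 2172 CPM in WT and at 1046 and 762 CPM in ERG CKO aerocytes, fell (−1.34, adjusted p = 0.00408). Of the genes tested, 4 of 4 erythroid, 2 of 3 AT2 and 1 of 1 myeloid genes rose, beside 2.91% of all genes. In the full class of ERG CKO replicate 2, 99.6% of erythroid, 99.6% of AT2 and 93.6% of myeloid UMIs lay in 2 cells. For ERG CKO replicate 1 the corresponding values were 24.5%, 93.3% and 64.4%. None of the 4 fibroblast genes or the 1 mural gene passed with 4 or 5 markers. No T cell or B cell gene had enough counts to be tested in aerocytes, and 1 of 5 lymphatic genes did in the full class, where it did not pass.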
